A study of Mus musculus with 64 samples.

Results

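Macrophages and neutrophils were followed through 39 marker genes, a list of symbols, among the 48440 gene IDs of the liver and gonadal adipose mRNA tables. All 39 symbols were found in both tables, and 37 passed the minimum mean signal of 10 in each. The libraries came from 129S6/SvEvTac mice, and every group, controls included, had drunk water with inorganic arsenic at 400 ppb for 4 weeks, so no unexposed animals stand beside them. WT animals expressed the mouse ortholog of AS3MT, the enzyme that methylates arsenic, and humanized animals the human ortholog, in males and in females of each genotype. Liver had 3 libraries in each of the 4 groups (WT males, humanized males, WT females and humanized females, replicates 1 to 3). Adipose tissue had 3 in each group (replicates 4 to 6) except WT males, with 2 (replicates 4 and 5). The labels give no ages, and they do not say whether the libraries of a group came from separate animals, so p-values measure the spread between these libraries, which may be technical. Liver libraries were made after ribosomal depletion (6 libraries) or after polyA enrichment (6 libraries), and both preparations occurred in every group. In WT animals of each sex only replicate 1 had ribosomal depletion. In humanized animals only male 3 and female 2 had polyA enrichment.

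Macrophages are phagocytes that settle in tissues before birth or arrive later as blood monocytes, and the receptor for colony stimulating factor 1 (Csf1r) and the transcription factor PU.1 (Spi1) maintain them. In the liver the resident macrophages are Kupffer cells, which line the sinusoids, clear particles from portal blood and carry receptors such as CLEC4F and CRIg (Vsig4). In fat, resident macrophages carry scavenger receptors such as CD163 and the mannose receptor (Mrc1), and macrophages around dying, lipid-laden adipocytes turn on a lipid-associated programme with Trem2, Gpnmb and Cd9. Neutrophils are short-lived granulocytes. Their granule proteins, such as MPO, elastase and lactoferrin, are made largely by precursors in the bone marrow, whereas S100a8, S100a9, Csf3r and Cxcr2 are still transcribed in mature cells.

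Values are the normalized signal that the authors deposited, in which a gene can be compared between libraries of 1 tissue. The signal of a library summed to 77307210 to 95381805 in liver and 83100312 to 90417259 in adipose tissue. As3mt checked the genotypes: it stood at 2624 to 5796 in WT male and 5827 to 6111 in WT female liver against 0 to 5.98 in the 6 humanized livers, and at 1218 to 1737 in WT against 0 to 5.33 in humanized fat. The Y-linked gene Ddx3y, a check of the sexes, gave 7397 to 8434 in male fat and 0 to 2.18 in 5 female fat libraries, but 220 in WT female 5. Alb marked every liver library, at 3970061 to 8590177, and Adipoq every adipose library, at 116720 to 325520. One adipose library, WT male 5, also held Alb at 129200, where the other 10 held 598 to 12598, and results that rest on it are given with and without it.

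Of the macrophage markers, Adgre1 (F4/80), Cd68, Csf1r and Spi1 were above 0 in all 23 libraries. A signal above 0 does not by itself show a cell type, since the libraries held 18806 to 21926 genes above 0. Several neutrophil markers were at 0 in part of the libraries. Ly6g, the surface marker that defines mouse neutrophils, was at 0 in 7 of 12 liver and 9 of 11 adipose libraries and reached 5.01 and 2.27 at most. Camp was at 0 in 6 liver and 7 adipose libraries, Ngp in 3 and 6, and Mpo and Elane in 3 and 4 liver libraries. S100a8, S100a9 and Csf3r were above 0 throughout.

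Whether Kupffer cells and fat macrophages carry different markers was asked side by side, without a test, because the liver and adipose tables were normalized separately. Each library's signal was put in parts per 1000000 of its own sum (ppm). On that scale 19 of the 39 genes were higher in every adipose library than in every liver library, 3 were higher in every liver library, and 17 overlapped. Of all 17961 genes with a mean signal of at least 10 in either tissue, 47.9% were higher in all adipose libraries and 8.56% in all liver libraries, so both counts of the markers were near the background. In whole-tissue RNA of this kind, fewer cells of a type and less RNA per cell cannot be told apart.

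Among the 13 general macrophage and monocyte genes, 10 were higher in all adipose libraries, against 47.9% of all genes, and none in all liver libraries. Adgre1 (ENSMUSG00000004730), the F4/80 receptor, ran from 2.28 to 17.8 ppm in liver and from 18.5 to 327 in adipose tissue, and the adipose median was 6.34 times the liver median. Cd68 (ENSMUSG00000018774), a lysosomal glycoprotein of phagocytes, ran from 2.36 to 6.93 and from 12.1 to 289 ppm in the same order. Apart from Lyz1, described below, the gap of medians was widest for the integrins of this list: the adipose over liver ratio of medians was 34.2 for Itgam (CD11b) and 26.2 for Itgax (CD11c), although Itgax ranges overlapped. Fcgr1 and Tyrobp, the high-affinity IgG receptor and a signalling adaptor, also overlapped, with ratios of 2.22 and 3.72.

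**Figure D1:**
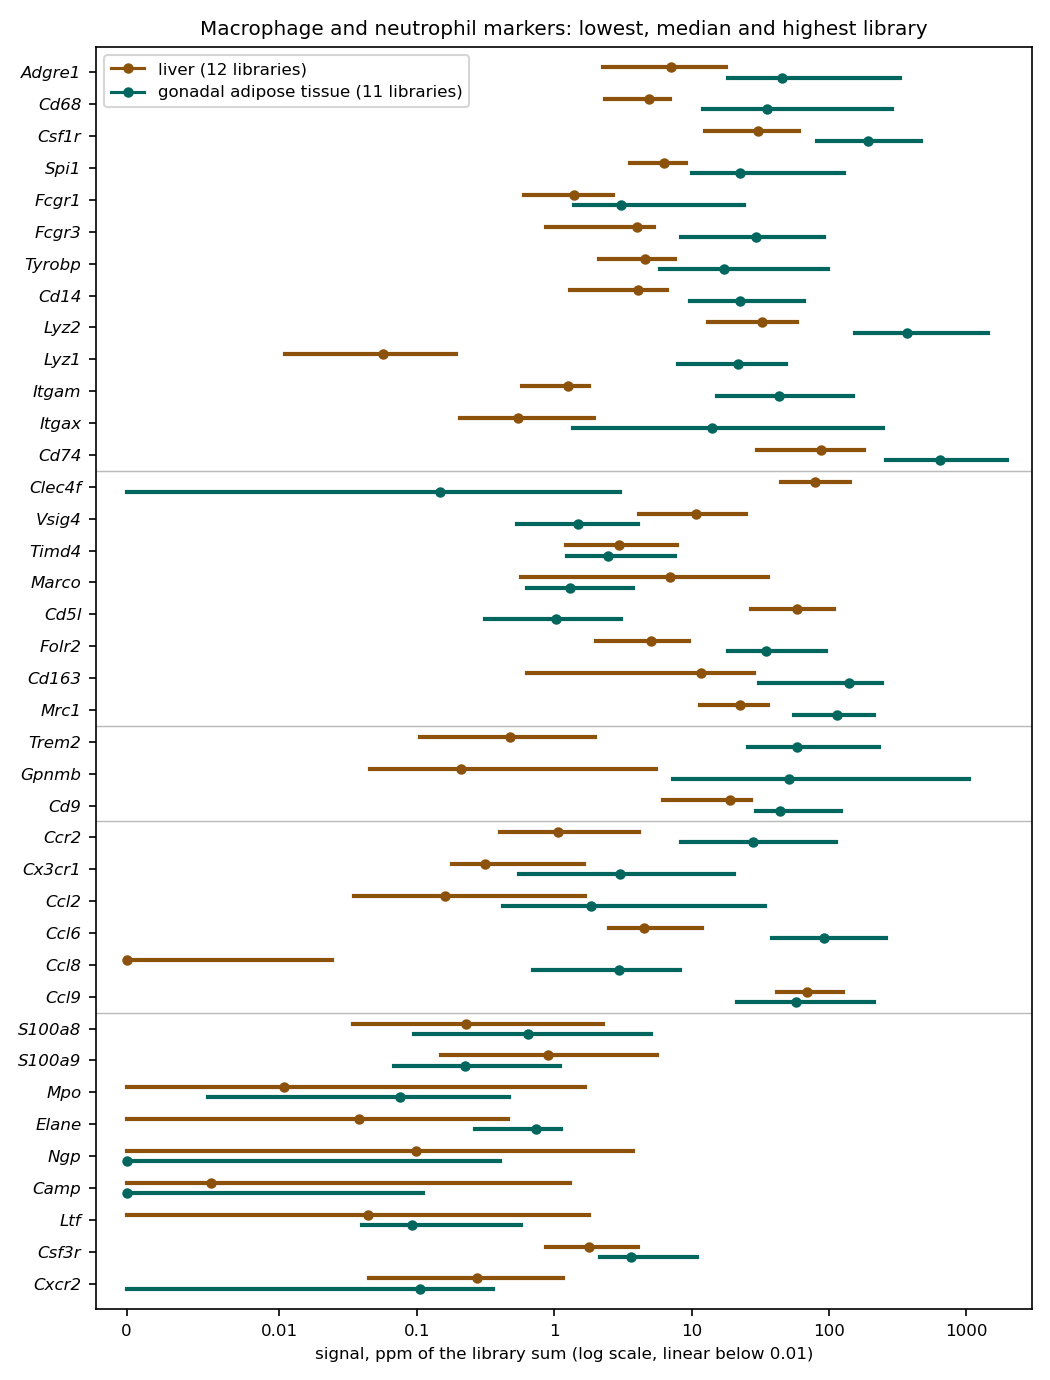
Signal in ppm of the library sum on a log scale, linear below 0.01 (x) for the 39 genes (y), with the lowest to highest library as a bar and the median as a point, for 12 liver libraries (brown) and 11 adipose libraries (green). Clec4f, Vsig4 and Cd5l lie to the right in liver with no overlap, 19 genes lie to the right in adipose tissue, and the 9 neutrophil genes at the bottom overlap.

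Of the 8 resident macrophage genes, 3 were higher in every liver library, 3 were higher in every adipose library and 2 overlapped. Clec4f (ENSMUSG00000014542), a galactose-binding lectin of Kupffer cells, ran from 45 to 143 ppm in liver and from 0 to 3.03 in fat, where 2 libraries were at 0. Cd5l (ENSMUSG00000015854), a secreted inhibitor of macrophage apoptosis, ran from 27.2 to 108 in liver and from 0.312 to 3.09 in fat, and Vsig4 (ENSMUSG00000044206), the complement receptor CRIg, from 4.15 to 25 and, just below, from 0.534 to 4.11. These 3 of the 39 were the only members whose liver libraries all lay above the adipose ones, a share near the 8.56% of all genes. The highest adipose Clec4f and Cd5l, at signals of 251 and 257, came from WT male 5, the library with high Alb. Without it the adipose Clec4f signal was at most 23.7 and Cd5l at most 192, and the part of liver RNA in that library's values was not tested.

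Other genes of the resident list lay the other way. Cd163 (ENSMUSG00000008845), the haemoglobin scavenger receptor, ran from 0.64 to 28.7 ppm in liver and from 31.1 to 244 in fat. Mrc1 (ENSMUSG00000026712), the mannose receptor, ran from 11.5 to 35.9 and from 55.9 to 213, and Folr2 (ENSMUSG00000032725), a folate receptor of resident macrophages, from 2.03 to 9.59 and from 18.4 to 95.1. These 3 of the 8 were thus higher in every adipose library, as were 47.9% of all genes. Of 10 further genes listed for resident macrophages of fat, 8 were higher in every adipose library, against 47.9% of all genes, and 2 overlapped. Timd4 (ENSMUSG00000055546), a phosphatidylserine receptor used to take up dying cells, was nearly level, at 1.23 to 7.89 in liver and 1.25 to 7.63 in fat. Marco (ENSMUSG00000026390), a scavenger receptor for bacteria and particles, overlapped as well, at 0.572 to 36 and 0.634 to 3.76, with 3 liver libraries far below the other 9.

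A ratio to Adgre1 within the same library sets the markers against F4/80 in place of the summed signal. Clec4f stood at 6.65 to 22.2 times Adgre1 in liver and 0 to 0.0347 times in fat. Timd4, level between the tissues in ppm, stood at 0.281 to 1.05 times Adgre1 in liver and 0.00383 to 0.197 in fat, with no overlap. Folr2 and Mrc1 overlapped on this ratio, at 0.403 to 1.25 and 1.6 to 10.3 in liver and 0.291 to 1.35 and 0.651 to 3.59 in fat. Cd163 overlapped as well, at 0.083 to 3.52 in liver and 0.0951 to 5.94 in fat. Such a ratio carries each gene's own scale and serves only to compare the same gene between tissues.

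The 3 lipid-associated genes were higher in every adipose library, as were 47.9% of all genes. Trem2 (ENSMUSG00000023992), a lipid-sensing receptor, ran from 0.105 to 1.98 ppm in liver and from 25.7 to 231 in fat, a ratio of medians of 123. Gpnmb (ENSMUSG00000029816), a lysosome-associated glycoprotein of lipid-laden macrophages, ran from 0.0457 to 5.51 and from 7.3 to 1044, a ratio of 245. Relative to Adgre1, Trem2 stayed apart, at 0.0129 to 0.369 in liver against 0.568 to 2.06 in fat, whereas Gpnmb overlapped. Cd9, a tetraspanin found on many cell types, differed least, with a ratio of medians of 2.31. Relative to Adgre1, Cd9 also overlapped but reached higher in liver, at 1.07 to 9.84 against 0.375 to 1.8 in fat. Of the 12 further genes listed for this programme, 5 were higher in all adipose libraries, against 47.9% of all genes, and 7 overlapped. But several of the 12 are abundant in adipocytes or hepatocytes as well.

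The lysozymes gave a contrast between near-identical genes. Lyz2 is the lysozyme of macrophages and neutrophils, and Lyz1, its neighbour on the same chromosome, is best known from Paneth cells of the gut. Lyz2 stood at signals of 1252 to 4693 in liver and 13958 to 118825 in fat, and Lyz1 at 0.957 to 16.8 and 722 to 4228. In ppm, the adipose over liver ratio of medians was 11.5 for Lyz2 and 383 for Lyz1. The upstream sequences of both are printed because they are so alike while the tissue contrast is not: the 120 bases before the transcript start were identical at 111 positions (92.5%), and the 250 bases at 79.4% of aligned positions. Capitals mark the 9 positions at which the copies differ, in RefSeq sequence of the GRCm38.p6 build, 5′ to 3′.
Lyz1 (chr10:117292869-117292988, minus strand): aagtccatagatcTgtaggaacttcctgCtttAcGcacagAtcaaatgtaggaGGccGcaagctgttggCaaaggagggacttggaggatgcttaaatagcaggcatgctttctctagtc
Lyz2 (chr10:117282273-117282392, minus strand): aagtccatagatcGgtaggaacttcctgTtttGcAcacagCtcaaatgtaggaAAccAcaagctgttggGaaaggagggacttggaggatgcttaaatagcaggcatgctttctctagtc
Since the transcripts are near copies too, how reads were divided between them could move both values, and each is uncertain to that extent.

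For monocyte recruitment, 3 of 6 genes were higher in every adipose library, near the 47.9% of all genes. Ccr2, the receptor that brings monocytes out of the marrow, ran from 0.402 to 4.14 ppm in liver and from 8.36 to 113 in fat. Its ligand Ccl2 overlapped, at 0.035 to 1.67 and 0.425 to 34.2. Ccl8, another ligand for monocyte receptors, was at 0 in 8 of 12 liver libraries and at signals of 61.7 to 704 in fat. Ccl6 was 20.2 times higher in fat by medians, and Ccl9, another chemokine gene, was about level at 41.8 to 126 and 21.4 to 212 ppm.

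None of the 9 neutrophil genes separated the tissues. S100a8 and S100a9, the subunits of calprotectin, stood at 0.0347 to 2.26 and 0.15 to 5.65 ppm in liver and 0.0955 to 5.03 and 0.068 to 1.11 in fat. Csf3r, the G-CSF receptor, stood at 0.88 to 4.05 in liver and 2.14 to 10.9 in fat. Elane (ENSMUSG00000020125), neutrophil elastase, held a signal between 22.1 and 97.3 in the adipose libraries. Among the other granule genes of the list, Mpo and Ltf were also above 0 in every adipose library, at 0.457 to 39.4 and 3.64 to 48.1, whereas Ngp ran from 0 to 34.2 and Camp from 0 to 9.29. In RefSeq (GRCm38.p6) Elane lies between Prtn3, another neutrophil granule protease gene, and Cfd, the gene of the adipocyte protease adipsin, both no members and singled out after their values were seen. Prtn3 stood at 149 to 406 in fat and 1.06 to 590 in liver. Cfd stood at 30999 to 567933 in fat and 0 to 31.8 in liver. The library with the lowest Cfd, humanized male 4, also had the lowest Elane, and the 2 highest in Cfd, humanized female 5 (567933) and WT female 5 (565496), had Elane at 75.1 and 97.3. WT female 6, second lowest in Cfd (153679), held Elane at 78.1. Reads shared between the neighbours were not tested.

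Between males and females in liver, 8 macrophage genes were lower in males, 1 (Trem2) was higher, and the other members tested were not called. Of the 37 members tested, 9 were called at an adjusted p under 0.05 (limma), 8 lower and 1 higher in males. In the same comparison 9.59% of all 15180 genes were called: 5.47% of the 15180 were called lower and 4.12% higher. Of the 37, 31 had a lower fitted mean in males and the median difference was -0.70 on the log2 scale of signal plus 1, against 48.3% of all genes and a median of 0.01. Without the minimum on the signal it was 33 of all 39. At an unadjusted p under 0.05 there were 17 of 37, against 26.1% of all genes.

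Kupffer cell and resident genes gave 4 of the 8 lower calls. Folr2 stood at 241, 193 and 426 in WT males and 375, 260 and 324 in humanized males, against 546, 768 and 768 in WT females and 606, 502 and 419 in humanized females. Only WT male 3 reached into the female range, and the male minus female difference was -1.004 ± 0.20 (SE) with an adjusted p of 0.0141. This call held in all 12 fits that left out 1 library. The other 8 calls were less stable: without WT female 2 or without humanized female 1, Folr2 alone remained called.

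Clec4f stood at 4063, 5506 and 6584 in WT and 6930, 4612 and 5004 in humanized males, and at 9158, 8891 and 6525 in WT and 10798, 12203 and 7211 in humanized females. The sexes touched only where WT male 3 and humanized male 1 lay above WT female 3, and the difference was -0.74 ± 0.18 (SE), adjusted p = 0.0279. Vsig4 had 598, 396 and 847 in WT and 995, 400 and 719 in humanized males against 1178, 2000 and 1597 and 1522, 1125 and 801 in the females. Humanized female 3 lay within the male range, and the difference was -1.08 ± 0.27 (SE), adjusted p = 0.0332. Of the 12 fits without 1 library, 4 kept the call of Clec4f and 3 that of Vsig4. For Mrc1 the males had 1034, 1115 and 1523 (WT) and 1883, 2139 and 1601 (humanized) and the females 2121, 2877 and 2395 and 2404, 1962 and 1805. The 3 WT males were the 3 lowest libraries, the humanized males overlapped the females, and the difference between the sexes was -0.58 ± 0.14 (SE), adjusted p = 0.028. The Mrc1 call held in 5 of the 12 fits and was lost with the replicate number as a block (adjusted p = 0.0549).

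The remaining resident genes, 4 in number, had lower male means but were not called. Cd5l had 3554, 2590 and 4680 in WT and 4473, 3466 and 5087 in humanized males and 5256, 8629 and 5598 and 8685, 8652 and 3322 in females, with humanized female 3 inside the male range (difference -0.70 ± 0.25 (SE), adjusted p = 0.0993). Timd4 had 162, 118 and 239 and 303, 218 and 182 in the males and 341, 632 and 227 and 595, 401 and 260 in the females (difference -0.96 ± 0.31 (SE), adjusted p = 0.0751), with WT female 3 and humanized female 3 inside the male range. Cd163 and Marco scattered far more widely. Cd163 had 799, 510 and 1264 and 1463, 195 and 49.4 in the males and 2441, 895 and 752 and 2116, 1066 and 1147 in the females, so that humanized males 2 and 3 lay below all other libraries (difference -1.53 ± 0.57 (SE), adjusted p = 0.12). Marco had 682, 957 and 543 and 1599, 558 and 44.3 in the males and 94.3, 1448 and 78.5 and 3048, 1094 and 501 in the females. Its 3 lowest libraries, humanized male 3, WT female 3 and WT female 1, came from both sexes and both preparations, and the difference of -0.06 ± 0.94 (SE) was small beside its error.

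Of the 12 general macrophage genes tested, all had a lower mean in males and 4 were called, against 48.3% and 5.47% of all genes. Itgam (ENSMUSG00000030786) was the only member without overlap between the sexes, where 2.73% of all genes were lower in males without overlap: it stood at 82.2, 63.9 and 50.2 in WT and 95.6, 53.2 and 95.3 in humanized males, and at 140, 133 and 157 and 118, 112 and 134 in females. Its difference was -0.88 ± 0.21 (SE), adjusted p = 0.028. Csf1r (ENSMUSG00000024621) had 1571, 1193 and 2200 and 2543, 1215 and 2427 in the males and 3150, 4889 and 3958 and 4566, 2898 and 1912 in the females, with humanized female 3 in the male range and a difference of -0.94 ± 0.26 (SE), adjusted p = 0.0462. Spi1 (ENSMUSG00000002111) had 416, 340 and 445 and 393, 368 and 624 against 517, 724 and 622 and 634, 756 and 544. Only humanized male 3 reached the female values of Spi1, and the difference was -0.57 ± 0.14 (SE), adjusted p = 0.0302. Of the 12 fits without 1 library, 5 kept the call of Itgam, 3 that of Csf1r and 3 that of Spi1.

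Cd74 (ENSMUSG00000024610), the invariant chain of MHC class II and so a marker of B and dendritic cells as well, had 3790, 3077 and 5716 in WT and 4487, 2717 and 9929 in humanized males and 8123, 14507 and 9445 and 10765, 8073 and 6592 in females. Humanized male 3 was the male exception again, and the difference was -1.05 ± 0.27 (SE), adjusted p = 0.0339, a call kept in 4 of the 12 fits. Adgre1 missed the threshold: its males had 302, 280 and 446 and 765, 208 and 596, its females 694, 1337 and 808 and 1503, 558 and 435, and the difference was -1.04 ± 0.38 (SE), adjusted p = 0.116. The 3 humanized females alone spanned 435 to 1503. Cd68 ranged over 225 to 505 in the 6 males and 272 to 555 in the 6 females, a difference of -0.48 ± 0.22 (SE), adjusted p = 0.201.

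**Figure D2:**
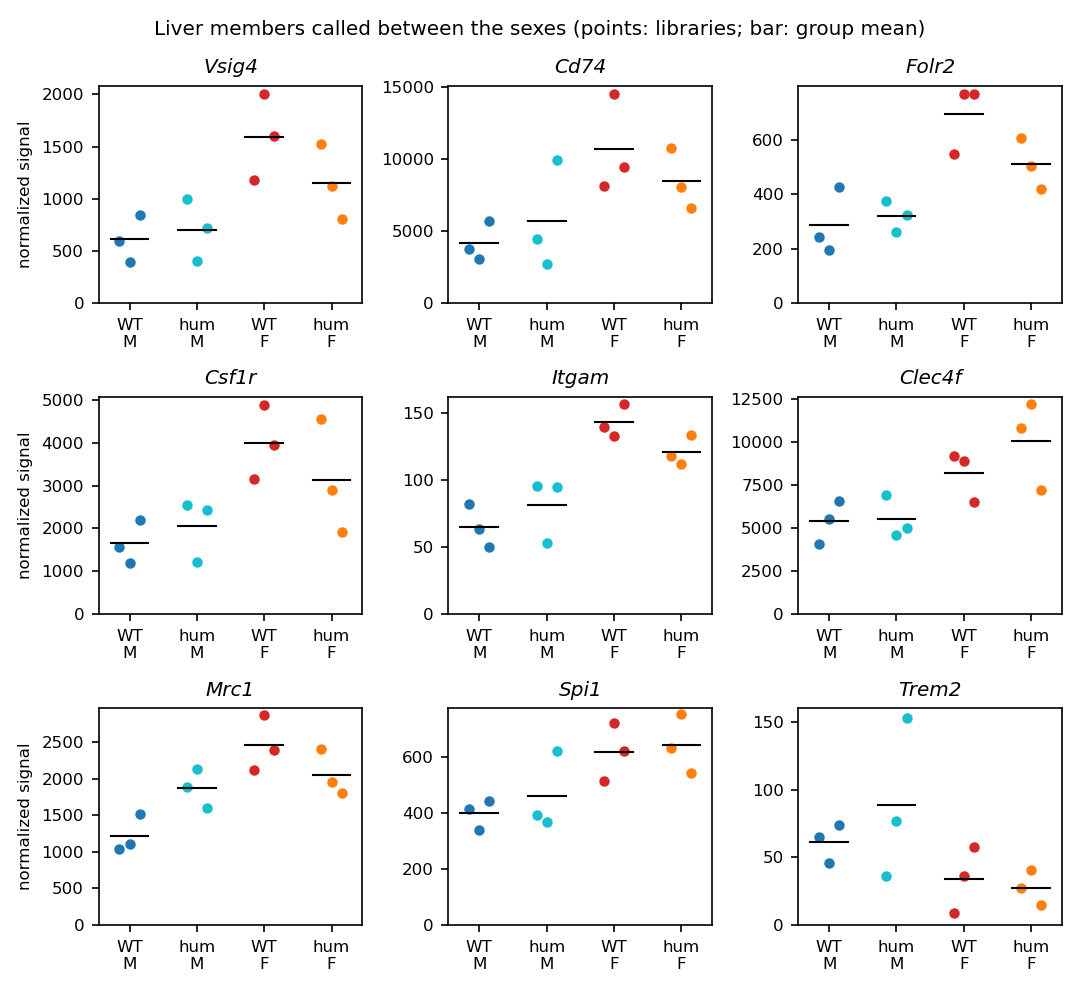
Normalized signal (y, from 0) of the 9 liver members called between the sexes, in the 3 libraries of each group (points, x: WT and humanized males, WT and humanized females) with the group mean (bar). Female points lie mostly higher in 8 genes, lower in Trem2, and only in Itgam do all 6 female points lie above all 6 male points.

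Trem2 went against the other calls. It stood at 64.8, 45.5 and 74.1 in WT and 36.5, 76.7 and 153 in humanized males, and at 8.98, 36.1 and 57.4 and 27.2, 40.8 and 14.5 in females, and WT female 3 and humanized female 2 lay within the male range. The difference was 1.34 ± 0.38 (SE) with an adjusted p of 0.04999, barely under the threshold, and the call was lost in 10 of the 12 fits without 1 library and under the replicate block (adjusted p = 0.0874). Gpnmb had 26.5, 4.36 and 17.3 and 10.9, 63 and 426 in the males and 23.7, 5.39 and 8.55 and 89.3, 18.4 and 16.7 in the females, and humanized male 3 alone held the high end. Without that library the Gpnmb difference turned from 0.71 to -0.18.

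The recruitment and neutrophil genes gave no call between the sexes in liver. Of 5 recruitment genes tested, 3 had a higher and 2 a lower male mean, from -0.62 for Ccr2 to 0.36 for Ccl2. Of the 9 neutrophil genes, Mpo, Elane, Ngp, Camp and Ltf passed the minimum mean of 10 in liver only through humanized females: over the other 9 livers their means were 1.14 (Camp) to 6.4 (Elane). Elane also fell below the minimum without WT males, at a mean of 9.93. Counts over the neutrophil genes are therefore not given for liver. The other 4 differed by -0.89 (Cxcr2) to -0.67 (S100a9) between males and females, and Csf3r had an unadjusted p under 0.05. Csf3r stood at 80 to 172 in the 6 males and 142 to 345 in the 6 females (difference -0.72 ± 0.22 (SE), adjusted p = 0.0694). The highest granule gene values of the females lay in the humanized group described below.

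Markers of some other cell types were also called lower in male liver, and 1 erythroid marker was called higher. Among all genes 5.47% were called lower and 4.12% higher, and 48.3% had a lower male mean. Of 7 endothelial markers, 6 were called lower in males, among them Pecam1 at -0.85 ± 0.18 (SE), and their summed signal was 7655 to 11219 in males and 10634 to 19291 in females. Of 11 T and NK cell markers, 4 were called lower, with Cd3g at -1.34 ± 0.26 (SE) and a summed signal of 222 to 440 in males and 306 to 611 in females. Of 6 dendritic cell markers, 2 were called lower and 6 had a lower male mean. Of 6 hepatocyte markers none was called, 1 had an unadjusted p under 0.05, and 3 had a higher male mean. None of 7 B cell markers was called or had an unadjusted p under 0.05, with 4 higher and 3 lower. Of 5 erythroid markers tested, Alas2, which starts haem synthesis in red cell precursors, was called higher at 3.77 ± 0.31 (SE), without overlap, and the others were not called. Alas2 stood at 3353 to 13223 in males and 362 to 970 in females, and the summed signal of the 7 listed erythroid markers at 3777 to 13733 and 788 to 1557. Every marker of the endothelial, T and NK, hepatocyte, erythroid and B cell lists was above 0 in at least 1 library, and the part of these cells in the macrophage result was not tested.

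Further macrophage genes that were not members went the same way: 18 of 19 tested had a lower male mean and 7 were called, all lower. The shares of all genes were 48.3% and 5.47%. Laptm5 (-0.74 ± 0.12 (SE)), Irf8 (-0.67 ± 0.12 (SE)) and C1qa (-0.78 ± 0.16 (SE)), the last a chain of complement C1q made by macrophages, had the smallest p-values. The 10 further Kupffer cell genes were mixed, with Clec1b called lower at -0.49 ± 0.12 (SE) and C6 called higher at 4.37 ± 0.30 (SE). C6 encodes a terminal complement component that hepatocytes also make.

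Male and female libraries both included both preparations, and no called member changed direction within either. In the 6 ribosomal depletion libraries the median member difference was -0.54, with 27 of 35 tested lower, and in the 6 polyA libraries -0.79, with 31 of 36 lower, and no member was called in either preparation. Folr2 stood at -0.93 and -1.02 in the ribosomal depletion and polyA libraries, Clec4f at -0.91 and -0.81, and Vsig4 at -0.89 and -1.13. Without 1 library the number of calls fell to 8 (without WT male 3), 7 (humanized male 1), 6 (humanized female 3), 5 (WT male 1 or humanized male 3), 3 (humanized male 2 or humanized female 2), 2 (WT male 2, WT female 1 or WT female 3) and 1 (WT female 2 or humanized female 1).

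In adipose tissue no member was called between the sexes, where 0.42% of all 17394 genes were called, and 7 of 37 had an unadjusted p under 0.05, against 12.5% of all genes. Of the 37 tested, 28 had a higher mean in males, against 50.8% of all genes, with a median difference of 0.62 against 0.00 for all genes. That median was 0.33 without humanized male 4 and 0.37 without WT male 5, the library with high Alb. All 13 general macrophage genes had a higher male mean, from 0.32 for Csf1r to 2.38 for Itgax, and none of them had an unadjusted p under 0.05. The 19 further macrophage genes tested all had a higher male mean as well, without a call or an unadjusted p under 0.05.

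The smallest p among members in adipose tissue belonged to Vsig4, at 238 and 298.3 in WT and 342, 131 and 131 in humanized males and 51.4, 45.9 and 48.2 and 185, 60.8 and 75.6 in females. Only humanized female 4 lay inside the male range, and the difference was 1.68 ± 0.36 (SE), adjusted p = 0.105. In liver the same gene was lower in males; the difference between the tissues was not tested. Trem2 had 4512 and 10045 and 19272, 7725 and 8369 in the males and 3204, 2204 and 3572 and 7322, 4911 and 3764 in the females (difference 1.13 ± 0.32 (SE), adjusted p = 0.184). Its WT male 4 and humanized female 4 and 5 values made the overlap. Ccl9 had 6823 and 15106 and 17627, 5027 and 4464 in the males against 1937, 2937 and 2832 and 5892, 2807 and 4852 in the females, with humanized females 4 and 6 inside the male range (difference 1.39 ± 0.39 (SE), adjusted p = 0.196). Without WT male 5 the differences of Vsig4, Trem2 and Ccl9 were 1.60, 0.84 and 1.10.

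Timd4 ran the other way in fat, with 228.8 and 136 in WT and 104, 206 and 170 in humanized males and 205, 495 and 208 and 363, 423 and 640 in females. The sexes overlapped only between WT male 4, humanized male 5 and WT females 4 and 6, and the difference was -1.11 ± 0.32 (SE), adjusted p = 0.199. Elane and Mpo had the next smallest p among those lower in males, at -0.48 ± 0.34 (SE) and -0.97 ± 0.72 (SE), with adjusted p of 0.596 and 0.612. Mpo passed the minimum in fat only through humanized females (a mean of 4.42 over the other libraries), so its difference is a description. Without WT male 5 the differences of Timd4, Elane and Mpo were -0.92, -0.39 and -0.40. The 10 further resident macrophage genes of fat had 9 lower and 1 higher male mean, 5 with an unadjusted p under 0.05, against 12.5% of all genes, and none called. Mmp9, a gelatinase of neutrophils, macrophages and other cells, was the only listed gene called, at 184 and 300 and 253, 760 and 158 in the males and 974, 3293 and 2314 and 1414, 2461 and 4264 in the females, without overlap (-3.01 ± 0.48 (SE), adjusted p = 0.0361).

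**Figure D3:**
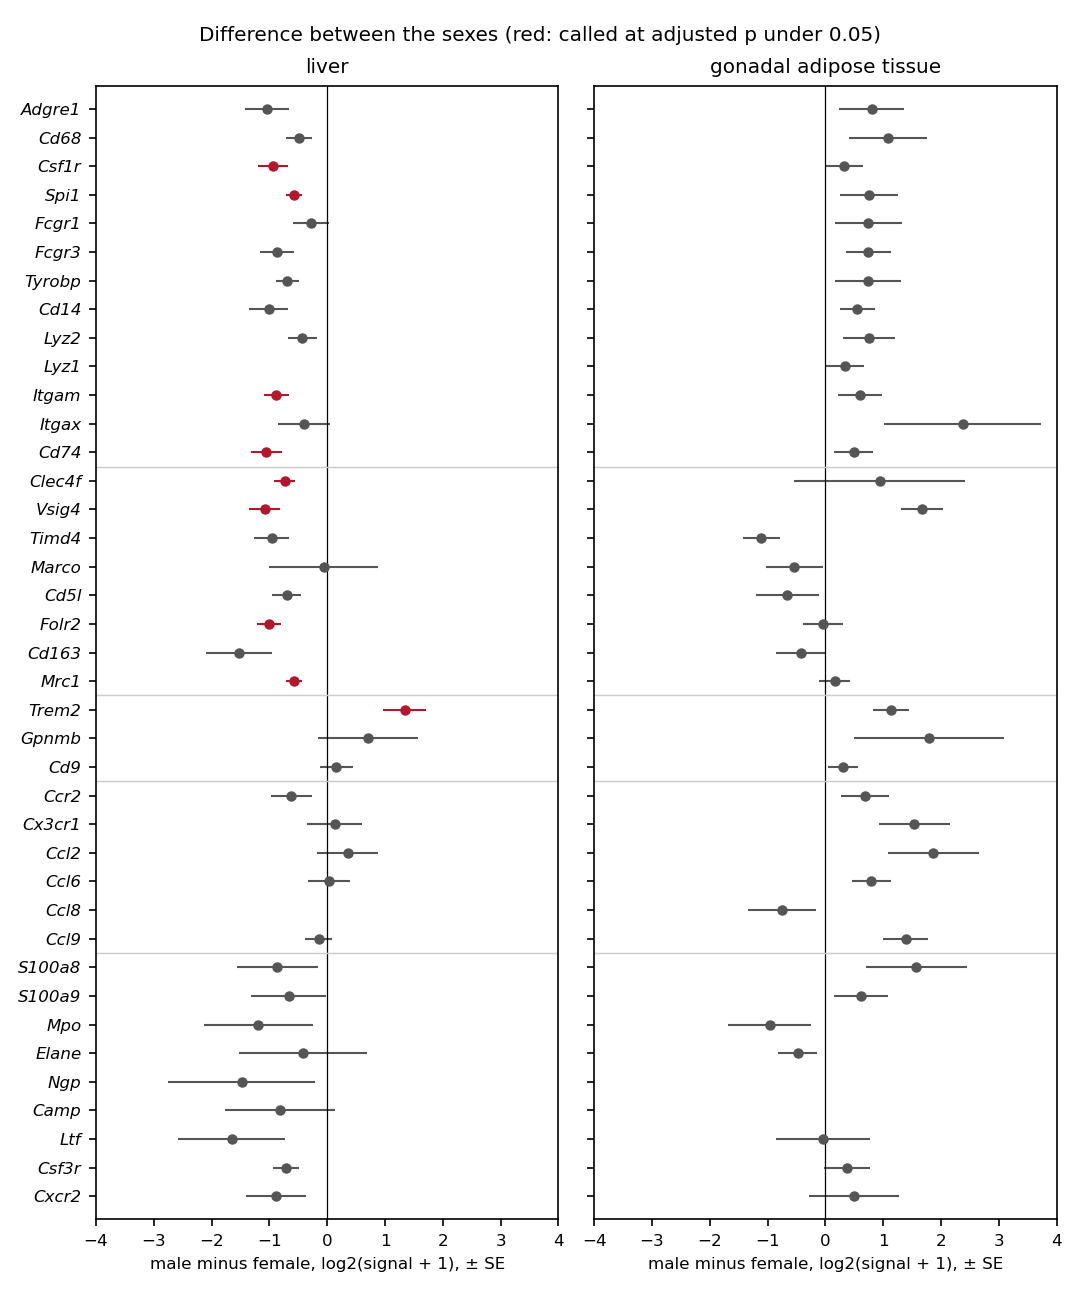
Male minus female difference of log2(signal + 1) with its SE (x) for the members tested (y) in liver (left) and gonadal adipose tissue (right), called members in red. In liver 31 of 37 points lie left of 0 and 9 are red. In fat 28 of 37 lie right of 0 and none is red.

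Humanized and WT males differed in no liver member past the threshold, where 0.0329% of all genes were called, and 4 of 37 had an unadjusted p under 0.05, against 7.13% of all genes. Of the 37, 31 had a higher mean in humanized males, against 49% of all genes, with a median of 0.41 against -0.01 for all genes. But the median was 0.22 without WT male 2 and 0.26 without humanized male 3. It was -0.07 among ribosomal depletion libraries, where WT male 1 was the only WT male. It was 0.75 among polyA libraries, where humanized male 3 was the only humanized male. Ccl2 had 11.3, 14.5 and 2.97 in WT and 19.7, 24.1 and 129 in humanized males (difference 2.50 ± 0.77 (SE), adjusted p = 0.581). The groups did not overlap for Ccl2 or for Mrc1, whose values are given above (difference 0.64 ± 0.20 (SE), adjusted p = 0.59), while 5.34% of all genes were higher without overlap. Lyz2 had 2326, 1252 and 2229 and 4228, 2124 and 4439, with humanized male 2 inside the WT range (difference 0.92 ± 0.37 (SE), adjusted p = 0.677).

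Among genes lower in humanized males, Cd163 had the smallest p (difference -2.18 ± 0.83 (SE), adjusted p = 0.671). Its group held both extremes, from 49.4 in humanized male 3 to 1463 in humanized male 1, the latter above all WT males. Elane and Marco followed, at -1.995 ± 1.61 (SE) and -1.27 ± 1.37 (SE). Without WT males the mean of Elane was 9.93, below the minimum of 10, so its difference here is a description. Humanized male 3 had the lowest Cd163 and Marco of all 12 livers together with the highest Gpnmb, Trem2, Ccr2 (320), Cx3cr1 (127), Ccl2 and Itgax (150). In all, 3 of the 6 recruitment genes and 2 of the 3 lipid-associated genes were highest in this liver, a count not made for all genes. Ccl6 (456), Ccl9 (4680) and Cd9 (2013) were not, and lay within the range of the other livers. Its Mki67, at 361, was also the highest, with 56.9 to 250 in the other 11, and its Clec4f of 5004 was within the range of the other males.

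In female liver no member was called between genotypes, where 0.0198% of all genes were called, and 2 of 37 had an unadjusted p under 0.05, against 5.66%. The 37 split into 19 higher and 18 lower, against 49.1% of all genes higher, with a median of 0.00. They include 5 neutrophil genes that passed the minimum only through humanized females. At a minimum mean of 50, 12 of 28 members were higher, with a median of -0.15 and 0 at an unadjusted p under 0.05. Of the neutrophil genes that did not need humanized females to pass the minimum, S100a8 differed by 2.08, S100a9 by 1.70, Cxcr2 by 0.91 and Csf3r by 0.58, none at an unadjusted p under 0.05. For the other 5, chosen by the group in which they were high, the fitted differences are a description. Mpo (ENSMUSG00000009350), myeloperoxidase, had 0.875, 0 and 0 in WT and 76.9, 143 and 11 in humanized females, without overlap, where 7.35% of all genes were higher without overlap. Its difference was 5.41 ± 1.36 (SE) with an adjusted p of 0.786. Camp, the cathelicidin gene, had 0, 0 and 1.05 and 5.83, 111 and 0, with humanized female 3 at 0 like 2 WT females (difference 3.36 ± 1.38 (SE), adjusted p = 0.786). S100a8 had 16.5, 9.97 and 12.6 and 31.4, 192 and 24.3, also without overlap (difference 2.08 ± 1.02 (SE), adjusted p = 0.786). Cx3cr1, the fractalkine receptor, was lower without overlap, at 27.6, 83.9 and 78.2 and 26.1, 15.4 and 25.3, where 6.71% of all genes were lower without overlap (difference -1.21 ± 0.70 (SE), adjusted p = 0.786).

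Humanized female 2 was the highest liver library for all 9 neutrophil genes. It held S100a8 at 192 and S100a9 at 482, against at most 43.3 and 192 in the other 11, both of the latter in WT male 1. Its Ngp was 318, its Ltf 153 and its Mpo 143, and humanized female 1 came next for Ngp (42.5) and Mpo (76.9). Among the livers these were the only 2 with Ngp above 13.5. Humanized female 3 had Ngp and Camp at 0 and Mpo at 11. Mpo and S100a8 were thus higher in each of the 3 humanized females, and the other 7 neutrophil genes overlapped between the genotypes. How many of all genes were highest in humanized female 2 was not counted. That library also held the most genes above 0 of the 12 livers (19559, the others 18806 to 19305). It was the only polyA library of the humanized females. The part of either in these values was not tested.

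**Figure D4:**
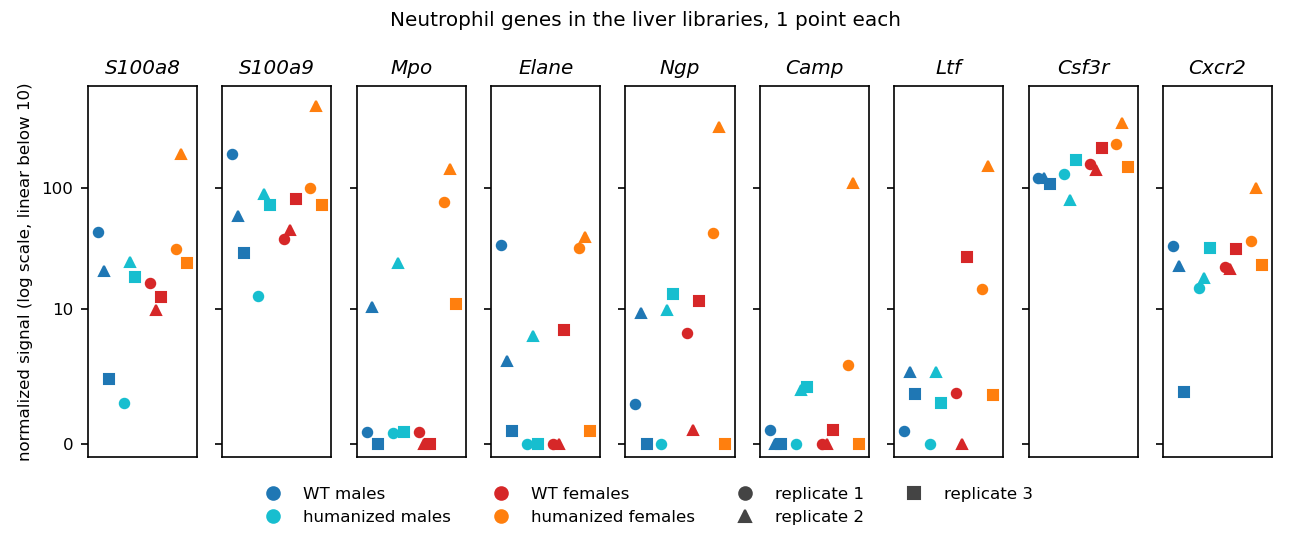
Normalized signal (y, log scale, linear below 10) of the 9 neutrophil genes in the 12 liver libraries, with colour for the group and the marker shape for the replicate number. Humanized female 2 (orange triangle) is the highest point in every panel, and most points of Mpo, Elane, Ngp, Camp and Ltf lie near 0.

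Upstream sequences are printed for 5 of the neutrophil genes that hold short matches to motifs of the factors that drive granulocyte and macrophage genes. The 250 bases before the start were searched on both strands for GAGGAAGT, a PU.1 site, and for TTNNGCAA, a C/EBP site. Of the 32 members with a RefSeq entry searched, 3 held the PU.1 letters (Elane, Mpo and S100a8) and 6 the C/EBP letters (Cd68, Fcgr3, Ltf, Lyz1, Ngp and S100a9). Of 32851 promoter entries, 2.44% and 9.56% held them. A member counted once if any of its entries matched, and Fcgr3 had more than 1 entry. The background counted single entries and included a chromosome left out for the members, so the shares are not like for like. A match describes the letters only. Each stretch is 60 bases of RefSeq GRCm38.p6, 5′ to 3′ on the gene's strand, with the match in capitals.
Mpo (chr11:87793534-87793593, plus strand): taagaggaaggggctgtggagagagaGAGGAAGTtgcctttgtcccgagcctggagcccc
Elane (chr10:79886201-79886260, plus strand): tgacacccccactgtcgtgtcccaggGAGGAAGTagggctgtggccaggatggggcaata
S100a8 (chr3:90668873-90668932, plus strand): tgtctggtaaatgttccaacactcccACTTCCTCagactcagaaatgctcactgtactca
Ltf (chr9:111019191-111019250, plus strand): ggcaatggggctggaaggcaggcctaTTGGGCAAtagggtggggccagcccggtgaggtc
Ngp (chr9:110419748-110419807, plus strand): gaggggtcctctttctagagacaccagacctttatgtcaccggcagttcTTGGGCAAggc
Beside these sequences stand the values above: all 9 neutrophil genes had their highest liver signal in humanized female 2. Among them Camp, Csf3r and Cxcr2 held neither match in the 250 bases. The part of the motifs in these signals was not tested.

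Over both sexes, no liver member was called between genotypes (0.0329% of all genes), with 2 of 37 at an unadjusted p under 0.05 (5.07% of all genes). Of the 37, 32 had a higher humanized mean, against 49.2% of all genes, with a median of 0.25. At a minimum mean of 50, 24 of 28 were higher, with a median of 0.20 and 0 at an unadjusted p under 0.05. The median over the members tested was 0.42 under the replicate block, 0.14 without WT female 1 and 0.38 without WT male 1. It was -0.01 in ribosomal depletion libraries, with 17 of 35 higher, and 0.38 in polyA libraries. Within each preparation 1 genotype of each sex had a single library. Mpo and Camp, which passed the minimum only through humanized females, had the smallest p, at 3.06 ± 0.99 (SE) and 2.55 ± 1.01 (SE), with adjusted p of 0.88 and 0.88. No member was called for a genotype difference that differed between the sexes (0.00659% of all genes), with 4 of 37 at an unadjusted p under 0.05 (8.18%). The male minus female genotype difference was 0.88 ± 0.28 (SE) for Mrc1 and -4.70 ± 1.87 (SE) for Mpo, with adjusted p of 0.585 and 0.598. Of the 37, 24 had a positive value, against 50.7% of all genes, with a median of 0.35. At a minimum mean of 50, 22 of 28 were positive, with a median of 0.46. The median was -0.14 in ribosomal depletion libraries, with 14 of 35 positive, and 0.83 in polyA libraries. These preparation medians again rest on a single library of 1 genotype in each sex. Leaving out 1 library gave 0.10 (WT male 2 or humanized male 3) to 0.69 (WT male 1). All 12 general macrophage genes tested had a positive value.

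In adipose tissue the macrophage genes followed single libraries. Humanized male 4 was the highest of 11 for 26 of the 39 genes, including 12 of 13 general macrophage genes, all 3 lipid-associated genes and 5 of 6 recruitment genes. WT female 4 was the lowest for 20 of 39, including 12 of 13 general genes. For all genes such counts of the highest or lowest library were not made. Adgre1 stood at 2192 and 7238 in WT and 27248, 4253 and 4419 in humanized males, and at 1674, 3880 and 3236 and 6796, 2498 and 3250 in females. Cd68 followed the same libraries, at 1852 and 8762 and 24075, 3830 and 3098 in the males and 1095, 2720 and 3275 and 6346, 1482 and 2192 in the females.

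Among members above 0 in every adipose library, Itgax and Gpnmb had the widest spread. Itgax ranged over 115 to 20525, a factor of 178, and Gpnmb over 613 to 86923, a factor of 142, against a factor of 3.51 for Mrc1. Gpnmb had 1094 and 19067 in WT and 86923, 8318 and 4501 in humanized males, and 790, 1331 and 7334 and 32014, 1214 and 613 in females. The 3 highest libraries, humanized male 4, humanized female 4 and WT male 5, came from 3 different groups, and they were also the 3 highest for Itgax. Trem2 had its 2 highest values in humanized male 4 and WT male 5.

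Resident genes divided. Folr2, Mrc1 and Vsig4 were also highest in humanized male 4, but Cd163 and Timd4 were lowest there: Cd163 stood at 13012 and 12428 in WT and 2590, 10825 and 12131 in humanized males, and at 7727, 20969 and 8359 and 11997, 13962 and 18472 in females. The other 10 libraries held at least 7727. The same library also had the lowest Adipoq (116720, others 209550 to 325520) and the highest Mki67 (4339, others 235 to 1245). The 6 adipocyte markers together stood at 1334593 there and at 1662851 to 2090228 in the other libraries. The part of fewer adipocytes in its values was not tested.

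**Figure D5:**
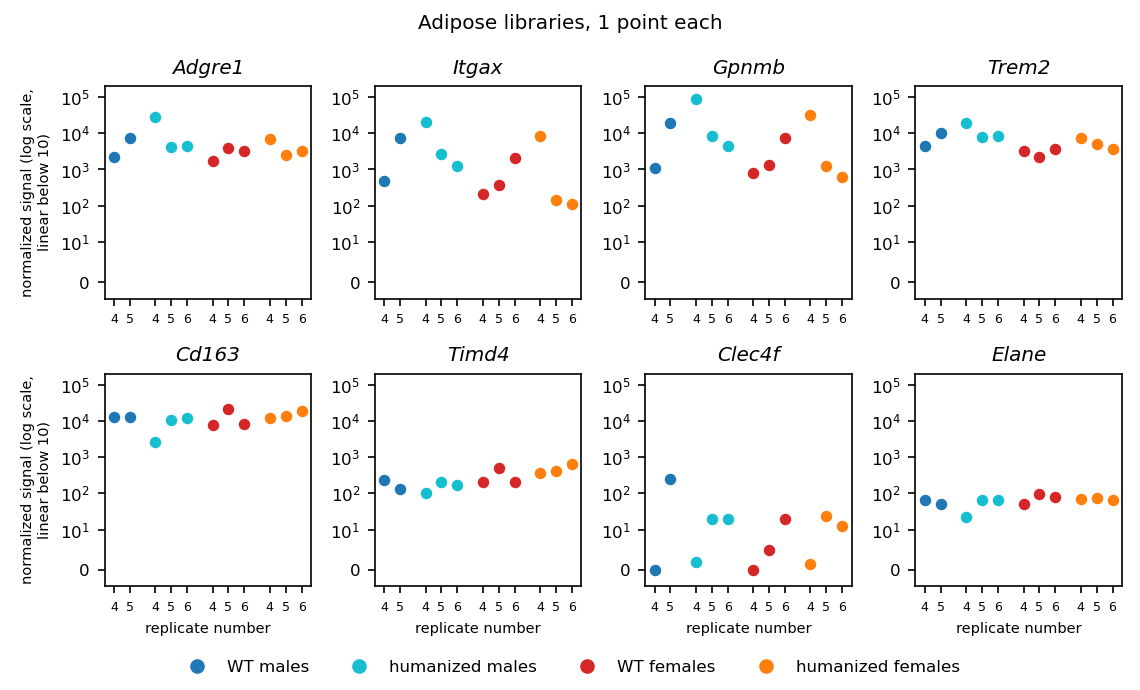
Normalized signal (y, log scale, linear below 10) of 8 members in the 11 adipose libraries (x, by group and replicate number, 1 point each). Humanized male 4 is highest for Adgre1, Itgax, Gpnmb and Trem2 and lowest for Cd163, Timd4 and Elane, and WT male 5 alone holds Clec4f above 100.

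Between WT and humanized males no adipose member was called (0.0172% of all genes), and 3 of 37 had an unadjusted p under 0.05 (8.41%). Of the 37, 23 had a higher humanized mean, against 51.1% of all genes, with a median of 0.65 against 0.01 for all genes, but the median was -0.01 without WT male 4 and 0.05 without humanized male 4. Without WT male 5, the other of the 2 WT males, it was 1.06, with 28 of 37 higher. S100a9 had the smallest p, with 93.5 and 91.8 in WT and 7.31, 5.99 and 15.3 in humanized males. The 2 WT values lay well above the others, and the difference was -3.25 ± 0.70 (SE), adjusted p = 0.258, while 12.1% of all genes were lower without overlap. Its partner S100a8 did not follow, at 183 and 102 and 419, 20.9 and 38.2, where humanized male 4 held the highest value (difference -0.95 ± 1.30 (SE)).

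Of the genes higher in humanized males, Lyz1 had 1012 and 1778 against 2687, 2707 and 4228 and Ccr2 1390 and 2333 against 9430, 2554 and 4567, both without overlap, where 11.2% of all genes were higher without overlap. Their differences were 1.22 ± 0.49 (SE) and 1.41 ± 0.61 (SE), with adjusted p of 0.55 and 0.58. Cd74 had 30030 and 64440 against 163230, 60672 and 72035 (difference 1.02 ± 0.51 (SE)), and the summed signal of 7 B cell markers, cells that also carry Cd74, was 28393 to 45365 against 46248 to 60204, whose part in the Cd74 values was not tested. Cxcr2, the receptor that draws neutrophils to chemokines, had 26.1 and 30 against 18.6, 0 and 5.9 (difference -2.50 ± 1.17 (SE), adjusted p = 0.614). Cxcr2 passed the minimum in fat only through WT males, with a mean of 8.97 over the other libraries. Without WT male 5 the humanized minus WT differences were 1.63 for Lyz1, 1.78 for Ccr2, 1.57 for Cd74, -3.27 for S100a9 and -2.40 for Cxcr2, with the lone WT male assumed to vary like the other groups.

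Between WT and humanized females no adipose member was called either (0.0172% of all genes), with 2 of 37 at an unadjusted p under 0.05 (5.25%). Of the 37, 33 had a higher humanized mean, against 49.8% of all genes, with a median of 0.46, which was 0.11 without WT female 4, 0.26 without humanized female 4 and 0.77 without humanized female 5. Mpo, which passed the minimum in fat only through humanized females (a mean of 4.42 over the other libraries), had 1.02, 0.457 and 9.96 in WT and 30, 14.9 and 39.4 in humanized females, without overlap, where 5.54% of all genes were higher without overlap (difference 3.09 ± 0.96 (SE), adjusted p = 0.933). S100a9 had 20.7, 9.26 and 6.78 and 19.1, 23.2 and 70.4, with humanized female 4 inside the WT range (difference 1.44 ± 0.63 (SE)). Vsig4, with values given above, had a difference of 0.95 ± 0.49 (SE) and an adjusted p of 0.933. Marco was the member with the smallest p among the 4 lower in humanized females, at 117, 113 and 318 and 150, 55.9 and 164 (difference -0.53 ± 0.66 (SE)).

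Over both sexes no adipose member was called (0.023% of all genes), with 3 of 37 at an unadjusted p under 0.05 (7.11%): Lyz1 at 1.02 ± 0.33 (SE), Cd14 at 0.71 ± 0.30 (SE) and Trem2 at 0.74 ± 0.32 (SE), with adjusted p of 0.558, 0.691 and 0.691. Of the 37, 30 had a higher humanized mean, against 49.3% of all genes, with a median of 0.53. Leaving out WT male 4 lowered it to 0.15, humanized male 4 to 0.22, WT female 4 to 0.31 and humanized female 4 to 0.35, and without WT male 5 it was 0.75. Cd14 is the co-receptor for lipopolysaccharide. No member had a genotype difference that differed between the sexes past the threshold (0% of all genes), and 2 of 37 had an unadjusted p under 0.05 (6.8%). These were S100a9, at -4.70 ± 0.94 (SE), and Mpo, which passed the minimum only through humanized females, at -3.88 ± 1.44 (SE), with adjusted p of 0.446 and 0.676. Without WT male 5 these 2 differences were -4.71 and -5.01. The fitted means of Lyz1 and Cd14 were higher in humanized animals of both sexes, by 1.22 and 0.69 in males and by 0.81 and 0.73 in females, but neither was called. Single libraries overlapped: Cd14 stood at 2549 in WT male 5 and 2103 in humanized male 5, and Lyz1 at 2185 in WT female 5 and 1535 in humanized female 5.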

How the data were processed

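mRNA was sequenced from 12 liver and 11 adipose libraries. The authors deposited normalized signal per gene; the submitters' processing notes name DESeq2, STAR, Salmon, limma and mm9, without versions or steps. Liver libraries used ribosomal depletion or polyA enrichment with a directional kit, per the labels' protocols, and adipose libraries a cited published protocol. Read counts were not recovered from the signal, so a log-scale test was used and the read depth is unknown.

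Each table was fitted with limma 3.58.1 (R 4.3.3, trended empirical Bayes) on log2(signal + 1) over genes with a mean of at least 10 (15180 liver, 17394 adipose), all 4 groups in 1 model, with preparation as a liver covariate. Benjamini-Hochberg adjustment ran over all genes tested, with calls at 0.05. The fit was tested on simulated data. In the low range the pseudocount of 1 understates fold changes. Lyz1 and Ccl8 were not tested in liver, nor Ngp and Camp in adipose tissue. Same-numbered liver libraries did not deviate together throughout (correlations -0.455 to 0.241 over 18 pairs). In adipose tissue most same-numbered pairs deviated in the same direction (correlations -0.105 to 0.399 over 15 pairs). Humanized male 6 with WT female 6 was the only negative pair. The main fit used no pairing. With the replicate number as a block, no adipose member was called, and the median difference between the sexes there was 0.68. Alternatives were the pseudocount, filters, rescaling, quantile normalization, the replicate block, preparation and leaving out each library. Members and gene lists were chosen with earlier results of these data known. Named were called members, 17 fixed markers and the 3 smallest p in each direction per comparison. Among other genes, those named were up to 3 of a list that held a called gene, and tissue markers. Sequences came from RefSeq tables (GRCm38.p6) and were not joined to coordinates of the files.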

Additional observations from a re-analysis of the deposited data

How the results depend on the processing

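The 9 members called between the sexes in liver kept their direction under all 21 alternatives. Their count was 0 in ribosomal depletion libraries alone and 0 in polyA libraries alone, where fewer libraries were compared, and 1 to 8 when 1 library was left out. It was 6 to 10 under the other settings. The count under the replicate block was 10, which no longer included Mrc1 and Trem2, and the block made no call elsewhere. The other 9 comparisons had 0 calls under every setting run. Folr2 kept its call under 19 of 21 alternatives and Trem2 under 4. Of the 189 values of the 9 called members under alternatives, 94 kept the call and 95 lost it. Over the other members named, 16 values reversed; the cause was not tested.

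Differences that changed sign are given here. Genotype differences within 1 preparation rest on a single library of 1 genotype in each sex. In liver, humanized against WT in males, Marco was 0.47 in ribosomal depletion libraries and -2.20 to 0.80 when 1 library was left out. Over both sexes Ccl6 was 0.41 in polyA libraries and -0.85 to 0.24 on leaving out 1 library, and Cx3cr1 was 0.041 in polyA libraries and -0.86 to 0.31. Genotype by sex, Ccl2 was -0.11 in ribosomal depletion libraries. Between the sexes Gpnmb was -0.19 in ribosomal depletion libraries and -0.18 to 1.38 on leaving out 1 library, and Ccl2 -0.013 to 0.77. In adipose females, on leaving out 1 library, Elane was -0.31 to 0.12 and Itgax -2.10 to 0.98. Over both sexes in fat Marco was -0.69 to 0.048. Genes near 0 in most libraries, above all the neutrophil granule genes, limit what these tables can show, and 2 to 3 libraries a group limit the precision.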

Other observations

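Some listed genes that are not members, singled out after their values were seen, stood apart in the same libraries. Mmp12, a macrophage elastase, was 967 in the liver of humanized male 3 and 4.19 to 45.5 in the other 11 livers. In fat it was 41027, 15765 and 13428 in humanized male 4, WT male 5 and humanized female 4, the 3 libraries highest in Gpnmb and Itgax, and 4.79 to 5648 in the other 8. Atp6v0d2, a proton pump subunit of lipid-associated macrophages, was 8138, 3234 and 2500 in these 3 and 53.1 to 919 in the others.

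Lcn2, a lipocalin made by neutrophils and by stressed hepatocytes, was 82317 in the liver of WT male 1 and 325 to 6973 in the other 11. That library also held the highest Ccl6 (1077) and Prtn3 (590), while its Mpo was 0.843 and its Ngp 2.97. The fat-resident macrophage genes F13a1, Cbr2 and Mgl2 stood at 56.1 to 190, 32.5 to 71.5 and 12.3 to 43.1 ppm in fat. In liver they stood at 0.0454 to 0.284, 0.00871 to 0.122 and 0.014 to 0.317. Cd207 and Slc40a1 encode langerin and the iron exporter ferroportin. They stood at 1.37 to 10.2 and 70.9 to 196 in liver and 0 to 0.423 and 2.56 to 21.7 in fat. Both come from the list of 10 further Kupffer cell genes. Of these 10, 3 were higher in every liver library, against 8.56% of all genes. Another 6 overlapped, and 1 (Id3) was higher in every adipose library, against 47.9% of all genes.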
